A study of Homo sapiens with 15 samples.

Results

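The genes described here serve MHC class I antigen presentation. They were taken by name from a table of RPKM values, which scale the reads of a gene to its length in kilobases and to the library's size. HLA-B, HLA-C, HLA-E and HLA-F encode class I heavy chains, B2M the light chain, TAP1 and TAP2 the peptide transporter, TAPBP the chaperone tapasin, and NLRC5 a transcriptional regulator of the class I genes. These are 9 of the 26443 genes with values. RNA had been sequenced from LNCaP, an established human prostate cancer line, and the labels give the genotype as WT in every group. All cells had been infected with a lentivirus 4-5 days earlier, including the controls, which carried the vector pLKO. The other groups carried a hairpin against PALI1 (shPALI1), G9a (shG9a), JARID2 (shJarid2) or SUZ12 (shsuz12), with 3 libraries in each of the 5 groups. The labels give 1 hairpin name per target, so loss of the target and any other effect of that hairpin cannot be told apart. They do not say whether replicates were separate cultures, so the p-values cover only the spread from library to library, and that spread may be technical.

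Class I molecules carry peptides from inside the cell to its surface, where CD8+ T cells and natural killer cells read them. Proteasomes cut proteins into peptides, the TAP1-TAP2 pump moves these into the endoplasmic reticulum, and tapasin holds an empty heavy chain and its light chain beside the pump until a peptide fits. Interferon raises most genes of the pathway, and NLRC5 works with the factors RFX, CREB/ATF and NF-Y on the promoters of the heavy chains and B2M. SUZ12 and JARID2 belong to PRC2, which methylates lysine 27 of histone H3, PALI1 is a PRC2 accessory protein, and G9a (gene EHMT2) methylates lysine 9 of histone H3. Tumour cells often carry low levels of class I genes.

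Promoter sequences of members are shown because NLRC5, the regulator among them, acts through motifs in the promoters of heavy chains and B2M. Whether motif content bears on the changes given further on was not tested. RefSeq windows on GRCh38.p14, from 250 bases before to 50 after the start, were found for 7 of the 9 members, the exceptions being HLA-E and NLRC5. The 250 bases before the start are given for 5 of them, 5' to 3' on the gene's own strand, with motif matches in capitals. HLA-B lies on the minus strand at chr6:31357180-31357429, HLA-C on the minus strand at chr6:31272093-31272342, B2M on the plus strand at chr15:44711267-44711516, TAP2 on the minus strand at chr6:32838740-32838989 and TAPBP on the minus strand at chr6:33314079-33314328.
HLA-B: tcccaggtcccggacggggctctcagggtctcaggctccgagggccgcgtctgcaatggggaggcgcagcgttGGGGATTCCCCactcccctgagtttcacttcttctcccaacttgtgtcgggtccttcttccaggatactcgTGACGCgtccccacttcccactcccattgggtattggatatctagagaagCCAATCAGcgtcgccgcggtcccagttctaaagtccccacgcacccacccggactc
HLA-C: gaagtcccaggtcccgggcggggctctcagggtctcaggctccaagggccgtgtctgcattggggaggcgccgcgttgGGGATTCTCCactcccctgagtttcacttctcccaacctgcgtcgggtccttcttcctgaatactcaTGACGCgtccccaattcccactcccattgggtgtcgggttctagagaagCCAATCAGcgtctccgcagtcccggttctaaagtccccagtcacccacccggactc
B2M: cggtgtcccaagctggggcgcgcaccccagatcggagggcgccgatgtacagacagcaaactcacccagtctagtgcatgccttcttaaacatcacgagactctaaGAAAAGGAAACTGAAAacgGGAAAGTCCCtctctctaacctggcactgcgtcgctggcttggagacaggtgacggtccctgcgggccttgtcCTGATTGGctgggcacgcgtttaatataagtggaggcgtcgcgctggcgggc
TAP2: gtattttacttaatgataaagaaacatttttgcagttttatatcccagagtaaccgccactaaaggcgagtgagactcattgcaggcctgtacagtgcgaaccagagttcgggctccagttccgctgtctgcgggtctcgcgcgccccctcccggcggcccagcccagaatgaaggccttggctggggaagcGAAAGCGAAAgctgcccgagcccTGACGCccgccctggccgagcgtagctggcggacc
TAPBP: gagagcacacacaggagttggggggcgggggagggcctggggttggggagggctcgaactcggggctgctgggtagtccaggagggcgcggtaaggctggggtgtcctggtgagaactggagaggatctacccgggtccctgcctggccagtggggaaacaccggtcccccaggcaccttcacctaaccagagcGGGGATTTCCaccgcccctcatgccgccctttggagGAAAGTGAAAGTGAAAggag

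Both strands were searched for 4 motifs. The interferon-stimulated response element, searched as GAAANNGAAA, lay in 1255 of all 35116 promoter windows of 300 bases (3.57%). It was found in TAPBP, TAP2, B2M, TAP1 and HLA-F. In TAPBP a pair of overlapping matches covered bases 20 to 5 before the start, and in B2M a pair covered bases 144 to 129 before it. No match to these letters lay in the HLA-B and HLA-C windows. The Y-type CCAAT box, searched as CCAATCAG, lay in 3.97% of all windows and was found in HLA-B, HLA-C, HLA-F and B2M, 57 to 45 bases before the start. The X2-type motif TGACGC, in 9.14% of all windows, was found in HLA-B, HLA-C and TAP2. A match to the NF-kappa B consensus, in 5.91% of all windows, lay in HLA-B, HLA-C, B2M, TAP1 and TAPBP, and it overlapped no other motif. A second RefSeq start of TAP1 had none of the 4 motifs. Aligned end to end, the HLA-B and HLA-C windows were 88.5% identical (269 of 304 columns), and HLA-B and HLA-F 79.7%. Such matches describe the letters of a window and show no binding.

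**Figure D1:**
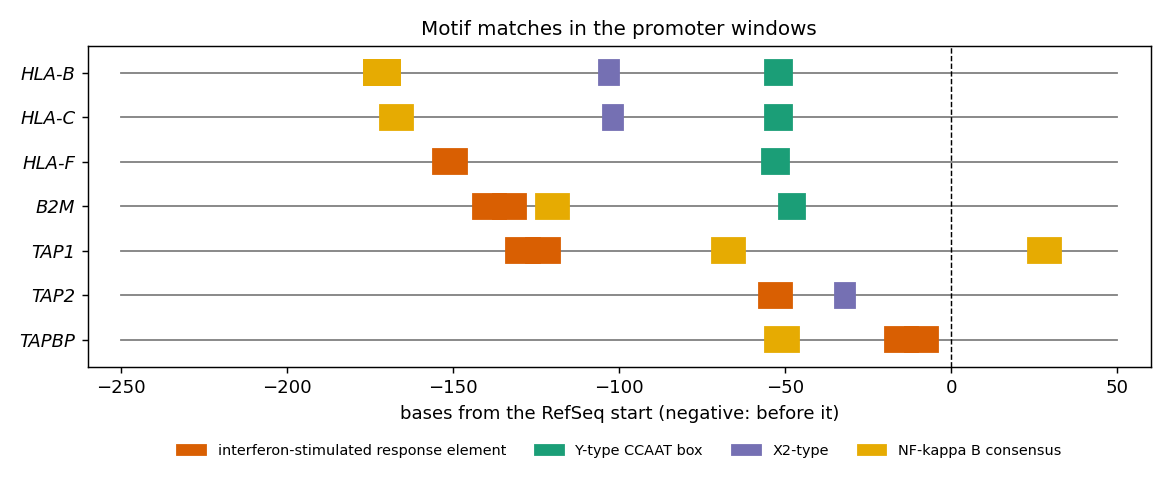
Motif matches in the 300-base RefSeq windows of 7 members, with the distance from the start in bases on the x axis and 1 line per gene. Coloured blocks are matches on either strand. HLA-B, HLA-C, HLA-F and B2M carry a Y-type CCAAT box 57 to 45 bases before the start, and TAP1, TAP2 and TAPBP do not.

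Library depth, worked out from the step that 1 read makes in the RPKM of short RNA genes, was 10.56 to 19.36 M reads. The targeted genes fell where the labels say: C10orf12, the row that distinguishes PALI1, to 23.8% of pLKO in shPALI1, EHMT2 to 25.7% in shG9a, JARID2 to 18.3% in shJarid2 and SUZ12 to 12.5% in shsuz12. In shPALI1, LCOR, which shares its locus with PALI1, fell to 60%. Targets also moved under other hairpins: EHMT2 fell to 71.5% in shJarid2 (limma adjusted p = 9.9e-04) and 80.3% in shsuz12 (0.015), and in shsuz12 JARID2 rose to 141% (2.2e-04) and LCOR to 158% (0.0051). The 7 luminal prostate markers checked, such as KLK3, were all expressed, with a summed level of 1804 to 2003 RPKM in pLKO, 678 to 783 in shPALI1, 894 to 963 in shG9a, 1425 to 1775 in shJarid2 and 1086 to 1187 in shsuz12. KLK3 alone had a mean of 1108 RPKM in pLKO, so the sums mostly follow it, and the 7 did not all fall. In shJarid2 KRT8 (195% of pLKO), KRT18 (176%) and HOXB13 (129%) were higher, and KLK3 (55.4%) and TMPRSS2 (66.2%) lower. In shG9a KRT8 was higher (136%) and 5 of the 7 lower. What part these shifts have in the results was not tested. Of 9 immune cell markers, CD3E and MS4A1 were at 0, and PTPRC and CD3D under 0.1 RPKM, in every library; 1 of the 9, CD68, reached 1 RPKM in 3 libraries and was higher in shPALI1 and shJarid2. Of 4 endothelial markers, PECAM1, CDH5 and KDR, and of 6 fibroblast markers, COL1A2, PDGFRA and DCN, were under 0.1 RPKM in every library. Of the others, VWF rose to 285% of pLKO in shG9a (limma adjusted p = 2.8e-06), COL3A1 rose to 724% in shPALI1 (1.8e-07) and COL1A1 fell to 31.2% in shJarid2 (2.5e-07). COL3A1 reached 1 RPKM in the 3 shPALI1 libraries alone and was tested for that reason, so its p-value is no separate support. LUM, which was not tested, had a mean of 0.0362 RPKM in pLKO and 1.06 in shsuz12. The summed endothelial level was 0.753 to 0.97 RPKM in pLKO and 0.479 to 2.48 under the hairpins, and the fibroblast sum 4.38 to 5.11 in pLKO, 1.76 to 2.29 in shJarid2 and 4.86 to 6.02 under the others; their part in the results was not tested. In bulk RNA, fewer cells expressing a gene and less of its RNA per cell cannot be told apart. The third shJarid2 library stood apart, with the highest column sum of RPKM (318754 against 250161 to 293663 in the others), and it read highest of its group for 8 of the 9 members.

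The gene lengths behind the RPKM values bear on every member of the MHC region. Whole reads were recovered for each gene, and with them the length the authors' table divided by. For 62 genes between the outermost members on chromosome 6 (29723279 to 33314212, GRCh38), this length was a median 6.81 times the exon length of the RefSeq-linked GENCODE transcripts, with quartiles of 5.87 and 7.15. For 11784 other genes the median was 1.00 (quartiles 0.97 and 1.01). The ratio was 6.10 for HLA-B, 7.20 for HLA-C, 7.16 for HLA-E, 6.47 for HLA-F, 8.50 for TAP1 and 7.97 for TAP2. Outside the region, it was 2.09 for B2M and 1.00 for NLRC5. TAPBP had no RefSeq-linked transcript in the annotation, and its recovered length of 20421 bases compares with 1888 bases for its principal transcript. The reference carries alternate versions of this region, and whether the lengths add up over them was not tested. Comparisons of 1 gene across libraries keep their ratios. The RPKM of MHC genes are, however, low for their reads, and adding 1 before taking logs shrinks their log2 changes. Changes against pLKO are therefore also given as percentages and from the recovered reads.

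**Figure D2:**
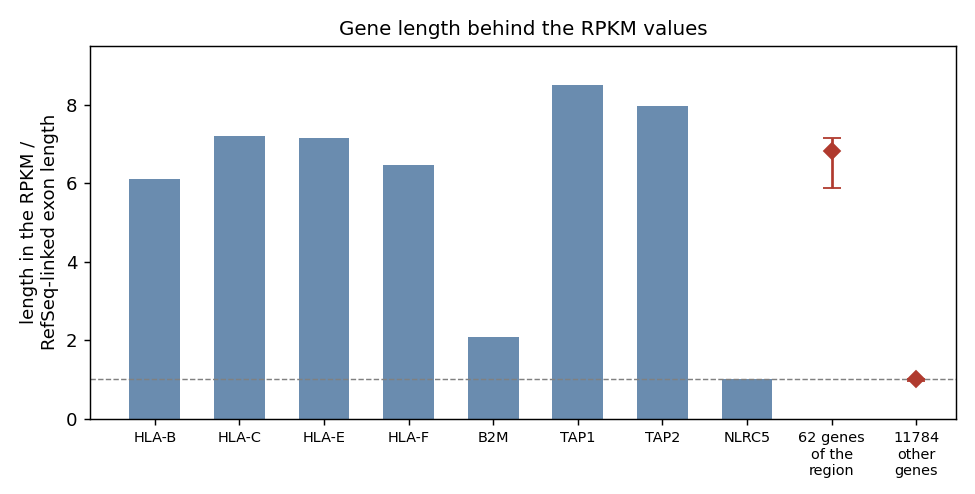
Length behind the RPKM values divided by the exon length of RefSeq-linked transcripts, for 8 members (bars) and for 62 genes of the MHC region and 11784 other genes (diamonds, median with quartiles). The 6 members on chromosome 6 shown stand between 6.10 and 8.50, and other genes at 1.00 (dashed line).

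Levels between genes were compared in RPKM recomputed from the recovered reads with the length of RefSeq-linked exons, which leaves out TAPBP. In pLKO, B2M was the most abundant at 141 ± 14 (SD, n = 3), followed by HLA-C at 92.2 ± 8.7 and HLA-B at 37 ± 3.3. TAP1 followed at 13.2 ± 0.83, TAP2 at 9.53 ± 0.62 and HLA-E at 7.3 ± 1. HLA-F at 1.53 ± 0.094 and NLRC5 at 0.489 ± 0.074 came last. No 2 neighbours in this order overlapped in their pLKO libraries. With RefSeq-linked exons, and so without TAPBP, the first 4 places were the same in each group by the mean. However, B2M (110 to 131) and HLA-C (87.5 to 114) overlapped in shsuz12. TAP1 (12.4 to 16.2) and HLA-E (10.5 to 13.6) overlapped in shJarid2. HLA-E stood above TAP2 in shPALI1 and shJarid2, overlapped it in shG9a (8.22 to 11.4 against 7.47 to 8.39), and stood below it in shsuz12. NLRC5 stood below HLA-F in every group but shG9a, where their libraries overlapped (2.31 to 2.58 against 2.25 to 3.37). This order depends on the lengths chosen. With the length of the principal transcript, an alternative chosen after seeing the data, B2M in pLKO came to 78.1 ± 7.6 (SD, n = 3) and overlapped HLA-C, which then had the higher mean in every group but shJarid2. TAP2 came to 23.6 ± 1.5, above TAP1, and TAPBP to 17.5 ± 0.16, between them. With the same lengths, TAPBP reached 56.1 ± 1.3 in shG9a and 54.6 ± 3.3 in shJarid2. There it stood above HLA-B (35.1 ± 3.6 and 42.1 ± 7.8), and in the other groups below HLA-B by the mean.

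Members were then tested with limma on log2(RPKM + 1), in 1 model of the 15 libraries over 12715 genes, with Benjamini-Hochberg adjustment and a threshold of 0.05. HLA-F lay under 1 RPKM in every library and was not tested, which left 8 members. NLRC5 passed the filter of 1 RPKM in 3 libraries through 6 libraries of shPALI1 and shG9a alone, and TAP2 through the 3 pLKO libraries and 1 of shG9a. In shPALI1, 2 members were higher than in pLKO (TAPBP and NLRC5), against 16.5% of all genes tested, and 1 was lower (TAP2), against 25.1%. In shG9a, 3 were higher (HLA-E, TAPBP and NLRC5), against 18.4%, and 0 lower, against 24.7%. In shJarid2, 3 were higher (HLA-E, B2M and TAPBP), against 23.8%, and 1 lower (TAP2), against 27.2%. In shsuz12, 1 was higher (TAPBP), against 21.1%, and 2 lower (HLA-E and TAP2), against 32.8%. With 8 members, these shares are near the background of a table in which every hairpin moved many genes, and they give no direction for the pathway as a whole. The median log2 change of the tested members was 0.11, 0.00, 0.13 and 0.08 in that order of hairpins, against -0.052, -0.040, -0.038 and -0.078 over all genes. The 4 comparisons share the pLKO libraries. Rescaling each library to a common sum (TPM) moved the share of higher among called genes from 42.7% to 57.8% in shG9a and from 39.1% to 53% in shsuz12.

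**Figure D3:**
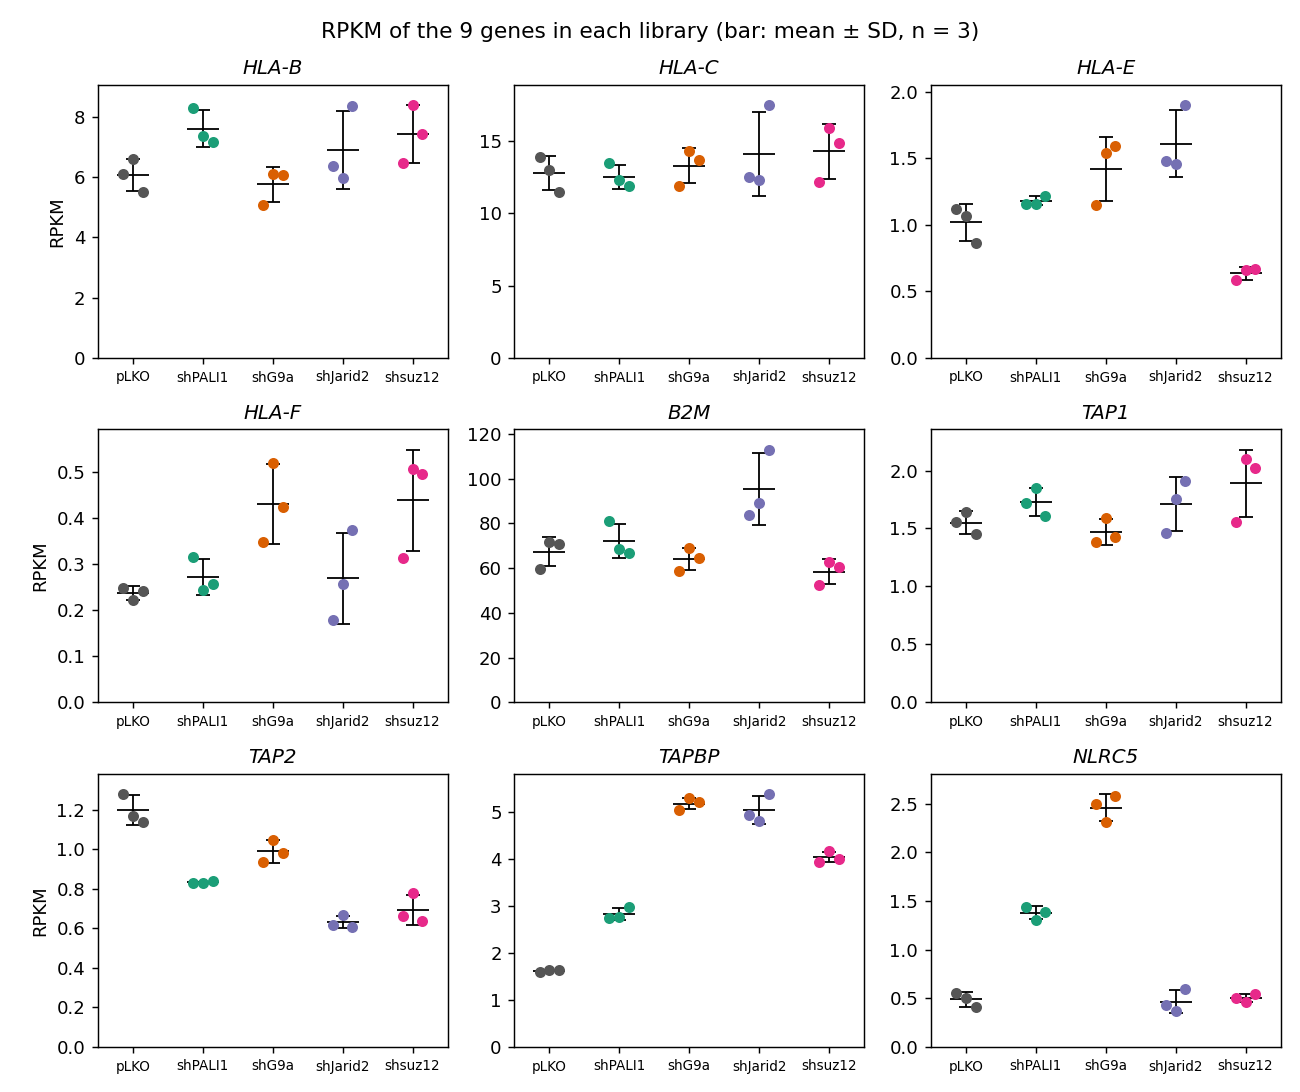
RPKM (y axes, from 0) of each of the 9 members in every library of the 5 groups (x axes); points are libraries in replicate order and bars are mean ± SD, n = 3. TAPBP stands above pLKO under every hairpin, NLRC5 in shPALI1 and shG9a, and TAP2 below pLKO under every hairpin.

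The classical heavy chains, HLA-B and HLA-C, present peptides to T cells. On log2(RPKM + 1) neither passed against pLKO under any hairpin, and HLA-B passed in shPALI1 on recovered reads and in other settings. The principal GENCODE transcript of HLA-B lies on the minus strand of chromosome 6 (GRCh38) from 31353872 to 31357187, and its exons share 372 bases with AL671883.2 on the opposite strand. Its libraries read 6.11, 6.58 and 5.5 RPKM in pLKO, 8.3, 7.35 and 7.15 in shPALI1, and 5.08, 6.11 and 6.08 in shG9a. In shJarid2 they read 6.37, 5.96 and 8.36, and in shsuz12 6.46, 8.38 and 7.43. All 3 shPALI1 libraries lay above the 3 of pLKO, and the other groups overlapped pLKO. The mean was 125% of pLKO in shPALI1 (log2 change 0.28 ± 0.12 SE, limma adjusted p = 0.066) and 122% in shsuz12 (0.25 ± 0.12, adjusted p = 0.087). Both passed with median ratio scaling (adjusted p = 0.037 and 0.026), with quantile normalization (0.041 and 0.043) and with TPM (0.015 and 0.0036). They also passed without the third shJarid2 library (0.022 and 0.033), the first in the 6 libraries alone (0.031) and the second without shsuz12 replicate 1 (0.042). In shG9a HLA-B stood at 95% and in shJarid2 at 114% of pLKO. On recovered reads HLA-B passed in shPALI1 (log2 change 0.32 ± 0.12 SE, limma voom adjusted p = 0.047), and the changes were 0.28 in shsuz12 (0.066), 0.17 in shJarid2 (0.28) and -0.08 in shG9a (0.65).

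HLA-C, on the minus strand of chromosome 6 from 31268749 to 31272086, had the narrowest range of group means relative to pLKO among the heavy chains. Values were 13.9, 13 and 11.5 RPKM in pLKO and 13.5, 12.3 and 11.9 in shPALI1. They were 11.9, 14.3 and 13.7 in shG9a, 12.5, 12.3 and 17.5 in shJarid2, and 12.2, 15.9 and 14.9 in shsuz12. Every hairpin group overlapped pLKO, with means from 97.9% in shPALI1 to 112% in shsuz12 of the control level. The smallest adjusted p was 0.36 (shsuz12, log2 change 0.14 ± 0.13 SE, limma), and that comparison passed with TPM alone (0.28, adjusted p = 0.022). On recovered reads the changes ran from -0.03 in shPALI1 to 0.15 in shsuz12 (limma voom adjusted p = 0.87 and 0.32). The high shJarid2 value was that of the third library, without which the log2 change in shJarid2 went from 0.11 to -0.04. Few 50-base words are shared between the heavy chains described here: 2.2% of those in HLA-B, 3.77% in HLA-C, 1.41% in HLA-E and 1.51% in HLA-F occur in another of them. How the authors' counting treated reads with several matches is not given in the sources used here.

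HLA-E, a nonclassical heavy chain that inhibits natural killer cells through CD94-NKG2A, moved both ways. It lies on the plus strand of chromosome 6 from 30489467 to 30494205. Its 187 to 318 reads per pLKO library gave 1.12, 1.07 and 0.861 RPKM. Values were 1.16, 1.16 and 1.22 RPKM in shPALI1, 1.15, 1.54 and 1.59 in shG9a, 1.48, 1.46 and 1.9 in shJarid2, and 0.582, 0.659 and 0.669 in shsuz12. No hairpin group overlapped pLKO, shsuz12 standing below it and the other 3 above. HLA-E rose to 158% of pLKO in shJarid2 (log2 change 0.37 ± 0.099 SE, limma adjusted p = 0.0066, and 0.64 on recovered reads) and to 140% in shG9a (0.26 ± 0.099, adjusted p = 0.047, and 0.47 on recovered reads, limma voom adjusted p = 0.0087). It fell to 62.5% in shsuz12 (log2 change -0.30 ± 0.099, adjusted p = 0.02, and -0.69 on recovered reads). In shPALI1 it stood at 116% (adjusted p = 0.38, and 0.22 on recovered reads). The shG9a call was lost in 18 of 24 alternatives, among them a pseudocount of 0.1 (adjusted p = 0.052) and leaving out any library but shG9a replicate 1 or shJarid2 replicate 3 (0.05 to 0.16), whereas that of shJarid2 was kept in 24 of 24. The shsuz12 call was lost without pLKO replicate 1 (0.068), pLKO replicate 2 (0.058) or shsuz12 replicate 1 (0.062). HLA-E in shsuz12 was also lower than under each other hairpin: the log2 difference of shsuz12 from shJarid2 was -0.67 (adjusted p = 5.3e-05), and shG9a and shPALI1 exceeded shsuz12 by 0.56 (3.7e-04) and 0.41 (0.0027).

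HLA-F, a nonclassical heavy chain known to reach the surface on activated lymphocytes, was measured from 32 to 90 reads per library. It lies on the plus strand of chromosome 6 from 29723279 to 29727296. Values were 0.249, 0.221 and 0.241 RPKM in pLKO, 0.316, 0.243 and 0.256 in shPALI1, and 0.348, 0.52 and 0.423 in shG9a. They were 0.178, 0.257 and 0.374 in shJarid2 and 0.313, 0.507 and 0.496 in shsuz12. The shG9a and shsuz12 libraries lay above all 3 of pLKO, at 182% and 185% by the mean, and shPALI1 (115%) and shJarid2 (114%) overlapped pLKO. On recovered reads the log2 change was 0.85 ± 0.26 SE in shG9a (limma voom adjusted p = 0.014) and 0.80 ± 0.26 in shsuz12 (0.015), and both also passed with no filter on RPKM (0.035 and 0.024). In shPALI1 and shJarid2 the changes on reads were 0.18 and 0.09 (adjusted p = 0.65 and 0.82). Exons of HLA-F overlap HLA-F-AS1 on the opposite strand over 257 bases and AL645939.1 over 519 bases. Since the counting is not stated to use strand, their reads may be counted in it.

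**Figure D4:**
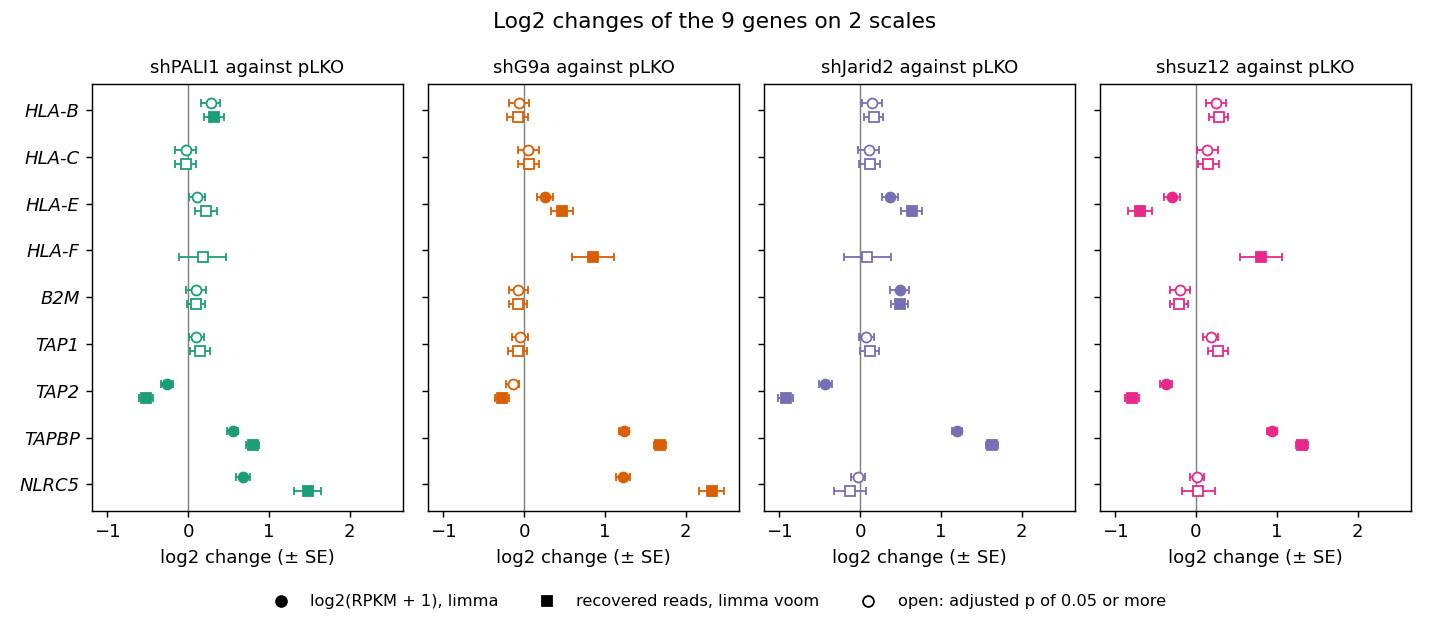
Log2 change against pLKO (x axes, ± SE, n = 3 libraries per group) of the 9 members (y axis) under each hairpin, on log2(RPKM + 1) (circles) and on recovered reads (squares); filled symbols passed. Changes on reads are the larger for TAPBP, NLRC5, TAP2 and HLA-E, such as 2.32 against 1.22 for NLRC5 in shG9a, and HLA-F has values on reads alone.

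B2M encodes the light chain that every class I heavy chain needs to leave the endoplasmic reticulum, and it rose under shJarid2. The gene lies on the plus strand of chromosome 15 from 44711487 to 44718877. Values were 59.8, 71.8 and 70.6 RPKM in pLKO, 81, 68.7 and 67 in shPALI1, and 58.9, 69 and 64.7 in shG9a. They were 83.7, 89.3 and 113 in shJarid2 and 52.3, 62.7 and 60.4 in shsuz12. The 3 shJarid2 libraries lay above all others of the series, and the third stood highest. The mean in shJarid2 was 142% of pLKO (log2 change 0.49 ± 0.12 SE, limma adjusted p = 0.0035), and the call held in 25 of 25 alternatives, with a highest adjusted p of 0.03. In shPALI1, shG9a and shsuz12 B2M stood at 107%, 95.2% and 86.8% of pLKO (adjusted p = 0.54, 0.68 and 0.17). On recovered reads the change was 0.49 in shJarid2 (limma voom adjusted p = 0.0013) and 0.10, -0.07 and -0.21 in those 3. Between hairpins, the log2 difference of B2M from shJarid2 was -0.69 in shsuz12 (adjusted p = 2.0e-04), -0.56 in shG9a (0.0013) and -0.39 in shPALI1 (0.011). The last of these was lost with quantile normalization (-0.17, adjusted p = 0.11). A difference between shPALI1 and shsuz12 (0.30, adjusted p = 0.046) was lost in 12 of 25 alternatives, such as without shPALI1 replicate 1 (0.18) or shsuz12 replicate 1 (0.17), and without pLKO replicate 2 (0.052) or 3 (0.053).

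TAP1 and TAP2 are the partners in the peptide pump. TAP1, on the minus strand of chromosome 6 from 32845209 to 32853978, shares 456 exon bases with PSMB8-AS1 on the opposite strand. Its libraries read 1.56, 1.64 and 1.45 RPKM in pLKO, 1.72, 1.85 and 1.61 in shPALI1, 1.38, 1.59 and 1.43 in shG9a, 1.46, 1.75 and 1.91 in shJarid2, and 1.56, 2.1 and 2.02 in shsuz12. Every group overlapped pLKO, with means from 94.7% (shG9a) to 122% (shsuz12), and no comparison with pLKO passed. In shsuz12 the log2 change was 0.18 ± 0.094 SE (limma adjusted p = 0.13), and it passed with median ratio scaling (0.046), with TPM (0.024) and without shsuz12 replicate 1 (0.037). On recovered reads it was 0.27 (limma voom adjusted p = 0.064), and 0.15, -0.08 and 0.12 in shPALI1, shG9a and shJarid2.

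TAP2 was lower than in pLKO under 3 of the 4 hairpins. The gene lies on the minus strand of chromosome 6 from 32821833 to 32838727 and shares 2011 exon bases with AL669918.1 on the same strand. It read 1.28, 1.17 and 1.14 RPKM in pLKO, from 651 to 916 reads per library. In shPALI1 it read 0.829, 0.832 and 0.838, in shG9a 0.937, 1.05 and 0.98, in shJarid2 0.618, 0.669 and 0.609, and in shsuz12 0.664, 0.781 and 0.638. All 12 hairpin libraries lay below all 3 of pLKO. TAP2 fell to 52.8% of pLKO in shJarid2 (log2 change -0.43 ± 0.079 SE, limma adjusted p = 4.3e-04), to 58.1% in shsuz12 (-0.37 ± 0.079, 0.0012) and to 69.7% in shPALI1 (-0.26 ± 0.079, 0.017). It stood at 82.8% in shG9a (adjusted p = 0.17). On recovered reads the changes were -0.92, -0.79 and -0.52 in the first 3, and -0.27 in shG9a, where it passed (limma voom adjusted p = 0.016). The shPALI1 call was lost in a model of its 6 libraries alone (adjusted p = 0.057) and without pLKO replicate 1 (0.058). TAP2 was higher in shG9a than in shJarid2 (0.29, adjusted p = 0.0071) and in shsuz12 (0.23, 0.027), the first lost with quantile normalization (0.12, adjusted p = 0.24) and the second in the 6 libraries alone (adjusted p = 0.06) and without shG9a replicate 2 or 3 or shsuz12 replicate 1 or 3 (0.061 to 0.089).

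TAPBP was higher under every hairpin, and its replicates were close together. Tapasin, its product, bridges the pump and the heavy chain and edits which peptides stay bound. The gene lies on the minus strand of chromosome 6 from 33303573 to 33314212. Its libraries read 1.6, 1.63 and 1.63 RPKM in pLKO (388 to 530 reads), 2.74, 2.77 and 2.98 in shPALI1, 5.05, 5.29 and 5.21 in shG9a, 4.94, 4.81 and 5.38 in shJarid2, and 3.94, 4.16 and 4.01 in shsuz12. The groups fell into 4 levels that did not overlap, with pLKO lowest, then shPALI1, then shsuz12, and shG9a and shJarid2 together at the top. Against pLKO, TAPBP rose to 320% in shG9a (log2 change 1.24 ± 0.063 SE, limma adjusted p = 5.8e-09), 311% in shJarid2 (1.20, 4.8e-09), 249% in shsuz12 (0.94, 4.0e-08) and 175% in shPALI1 (0.55, 1.1e-05). All 4 calls held in 25 of 25 alternatives, and on recovered reads the changes were 1.68, 1.63, 1.31 and 0.80. TAPBP in shPALI1 was lower than in shG9a (-0.69, adjusted p = 6.4e-07), shJarid2 (-0.66, 5.9e-07) and shsuz12 (-0.40, 1.0e-04). shG9a exceeded shsuz12 by 0.30 (0.0015), and shG9a and shJarid2 differed by 0.03 ± 0.063 SE (0.67). The difference of shsuz12 from shJarid2 (-0.26, 0.0026) was lost with TPM (-0.15, adjusted p = 0.15).

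NLRC5, the regulator, was higher in shPALI1 and shG9a. It lies on the plus strand of chromosome 16 from 56989498 to 57083524. Libraries read 0.554, 0.504 and 0.408 RPKM in pLKO (32 to 54 reads), 1.44, 1.31 and 1.39 in shPALI1, 2.5, 2.31 and 2.58 in shG9a, 0.432, 0.364 and 0.597 in shJarid2, and 0.499, 0.462 and 0.544 in shsuz12. shG9a stood highest, shPALI1 between it and the rest, and shJarid2 and shsuz12 overlapped pLKO. NLRC5 rose to 504% of pLKO in shG9a (log2 change 1.22 ± 0.087 SE, limma adjusted p = 1.2e-07) and to 282% in shPALI1 (0.68 ± 0.087, 3.1e-05). It stood at 95.1% in shJarid2 (adjusted p = 0.83) and 103% in shsuz12 (0.91). Counted in recovered reads, the changes were 2.32, 1.48, -0.12 and 0.03. Both calls held in 24 of 24 alternatives. Most of these use the filter that NLRC5 passed through the shPALI1 and shG9a libraries alone, so they are no separate support. With no filter both calls stood, and with a mean of at least 3 RPKM NLRC5 was not tested. Tested directly, shPALI1 was lower than shG9a (-0.54, adjusted p = 1.5e-04) and higher than shJarid2 (0.70, 8.5e-06) and shsuz12 (0.66, 1.9e-05). shG9a was higher than those by 1.24 (4.6e-08) and 1.21 (9.7e-08). In shG9a, where NLRC5 was highest, the members whose windows hold the Y-type box stood at 95% (HLA-B), 104% (HLA-C), 95.2% (B2M) and 182% (HLA-F) of pLKO. HLA-E, for which no window was found, stood at 140%. Whether NLRC5 or the box has a part in these levels was not tested.

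Comparisons between hairpins set 2 hairpin groups against each other, in the model whose spread and filter the pLKO libraries share. Of the 8 members tested, 3 passed between shPALI1 and shG9a (HLA-B, TAPBP and NLRC5), where 48.2% of all genes passed in either direction. Between shPALI1 and shsuz12, 4 passed (HLA-E, B2M, TAPBP and NLRC5), against 55.9%, and between shPALI1 and shJarid2 HLA-E, B2M, TAPBP and NLRC5 again, 4 in all, against 62.3%. Between shG9a and shsuz12, 5 passed (HLA-B, HLA-E, TAP2, TAPBP and NLRC5), against 45.6%. Between shG9a and shJarid2, 3 passed (B2M, TAP2 and NLRC5), against 55.8%, and between shsuz12 and shJarid2, 3 passed (HLA-E, B2M and TAPBP), against 59%. These counts lie near the background. HLA-B was higher in shPALI1 than in shG9a (0.35, limma adjusted p = 0.024), a call lost without replicate 1 of either (0.093 and 0.1). Its difference between shG9a and shsuz12 (-0.32, 0.041) was lost in 8 of 25 alternatives, such as without shG9a replicate 1 (0.16) or shsuz12 replicate 2 (0.17). HLA-E differed between shPALI1 and shJarid2 (-0.26, 0.038), a call lost in 7 of 24 alternatives, such as without the third shJarid2 library (-0.18, adjusted p = 0.15) or any 1 shPALI1 library (0.066 to 0.087). HLA-C and TAP1 passed in none of the 6, and TAP1 on recovered reads passed between shG9a and shsuz12 (-0.35, limma voom adjusted p = 0.021). TAP2 on recovered reads passed between shPALI1 and shG9a (-0.25, adjusted p = 0.027), shsuz12 (0.27, 0.017) and shJarid2 (0.40, 9.3e-04), where it had not passed on log2(RPKM + 1). HLA-F on recovered reads was higher in shG9a and shsuz12 than in shPALI1 (adjusted p = 0.038 and 0.047) and shJarid2 (0.016 and 0.02).

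Over the 15 libraries, members did not follow 1 common course. Pearson's r of log2(RPKM + 1) was 0.81 between HLA-B and TAP1, 0.71 between HLA-E and B2M, 0.64 between HLA-C and TAP1 and 0.63 between HLA-B and HLA-C. It was -0.64 between TAP2 and TAPBP. NLRC5 had its highest r with a member at 0.37, with HLA-E. Likeness was searched among tested non-members with a mean of at least 2 RPKM. Clone, locus, antisense and pseudogene names were skipped, and with them any symbol ending in P and digits. In that search, those most like TAPBP were SRPR (0.976), which encodes the receptor for the signal recognition particle, ATG4D (0.976) and SPINT1 (0.974). NLRC5 was most like CBX6 (0.979), a Polycomb protein, SLC20A2 (0.978) and RTN3 (0.948). TAP2 was most like MFN2 (0.972), a mitochondrial fusion protein, INCENP (0.947) and CHAF1A (0.943), HLA-E most like GSTK1 (0.956), ZNF410 (0.932) and IRAK1 (0.932), and B2M most like LYPLAL1 (0.942), MGST1 (0.932) and TUSC3 (0.929). HLA-C had TMEM258 (0.886), EMC4 (0.882) and LMAN2 (0.868), and TAP1 had MTRF1 (0.867), AAMDC (0.833) and ABCD4 (0.797). These r are descriptions over libraries that share groups and depth.

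The genes that act beside the members were taken from lists, whose counts stand against shares over all genes tested of 16.5% higher and 25.1% lower in shPALI1, 18.4% and 24.7% in shG9a, 23.8% and 27.2% in shJarid2, and 21.1% and 32.8% in shsuz12. Of 10 genes of peptide loading and trimming, 9 were tested. In shG9a 5 were higher and 2 lower, and in shPALI1 1 was higher and 3 lower. In shJarid2 1 was higher and 2 lower, and in shsuz12 2 were higher and 1 lower. The list's median log2 change was -0.27 in shPALI1, 0.41 in shG9a, 0.12 in shJarid2 and -0.02 in shsuz12, against -0.052, -0.040, -0.038 and -0.078 over all genes. CALR, the chaperone calreticulin of the loading complex, fell to 58.2% of pLKO in shPALI1 (log2 change -0.78, limma adjusted p = 5.7e-05) and rose to 138%, 151% and 134% in shG9a, shJarid2 and shsuz12. TAPBPL, a peptide editor related to tapasin, fell to 60.3% in shPALI1 (-0.50, 0.0023) and rose to 180% in shG9a (0.69, 2.0e-04). ERAP1, which trims peptides in the endoplasmic reticulum, rose to 189% in shG9a (0.69, 2.2e-04). SEC61B, a subunit of the translocon, fell to 50.1% in shPALI1 (-0.99, 1.5e-05). In shPALI1, TAPBP rose while CALR and TAPBPL fell, and in shG9a all 3 rose. Others of the list went the other way. CANX fell to 83.4% in shG9a (limma adjusted p = 0.023) and to 68.9% in shJarid2 (1.1e-04). HSPA5 fell to 75.5% in shG9a (1.4e-04) and 75.8% in shJarid2 (1.1e-04), and rose to 112% in shPALI1 (0.047).

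PSMB10, a catalytic subunit of the immunoproteasome, was lower under every hairpin, at 56.0% of pLKO in shPALI1, 52.0% in shG9a, 55.0% in shJarid2 and 43.2% in shsuz12 (limma adjusted p = 7.2e-05, 2.4e-05, 2.9e-05 and 1.5e-06). The other catalytic subunits of that particle, PSMB8 and PSMB9, reached at most 25 and 16 reads in any library. Of the 6 genes of the immunoproteasome and its activators, 4 were tested, of which 0 were higher and 1 lower in shPALI1, 0 and 3 in shG9a, 2 and 2 in shJarid2, and 0 and 4 in shsuz12. The median log2 change was -0.02, -0.68, -0.05 and -0.74 in that order. PSME1 and PSME2, which form the activator PA28, fell in shG9a (to 72.2% and 51.7%) and in shsuz12 (to 67.0% and 52.3%), and rose in shJarid2 (to 165% and 136%). In shPALI1 they stood at 110% and 89.3% (adjusted p = 0.3 and 0.27). Of the 3 standard catalytic subunits, PSMB5 was lower in shG9a and shJarid2, and PSMB6 and PSMB7 passed under no hairpin. B2M and PSME1 thus both rose in shJarid2, with PSME1 at 109 ± 19 RPKM (SD, n = 3) against 66.3 ± 2.7 in pLKO.

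Of 12 factors of class I promoters, all tested, 2 were higher and 1 lower in shPALI1, 0 and 3 in shG9a, 2 and 4 in shJarid2, and 0 and 4 in shsuz12, with medians of -0.05, -0.10, 0.00 and -0.10. RFX5, a subunit of the RFX complex with which NLRC5 works, fell to 49.8% of pLKO in shG9a (log2 change -0.97, limma adjusted p = 5.9e-09), 59.0% in shsuz12 (-0.74, 4.3e-08) and 68.8% in shPALI1 (-0.52, 1.7e-06), and stood at 106% in shJarid2 (0.19). NLRC5 and RFX5 thus moved in opposite directions in shG9a and shPALI1. NFKB1 rose to 153% in shPALI1 (0.58, 1.0e-05) and fell under the other 3 hairpins, to 78.1%, 84.1% and 62.5%. IRF1, which acts through the interferon-stimulated response element, rose to 159% in shPALI1 (0.37, 0.024) and fell to 60.6% in shJarid2 (-0.33, 0.036). IRF2, its relative, fell to 50.5% in shsuz12 (-0.79, 2.3e-06).

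Of 9 genes of interferon receptors and signalling, all tested, 2 were higher and 1 lower in shPALI1, 3 and 2 in shG9a, 3 and 3 in shJarid2, and 6 and 2 in shsuz12, with median log2 changes of 0.03, 0.16, 0.12 and 0.38. The chains of the interferon-gamma receptor rose in shG9a, shJarid2 and shsuz12, IFNGR1 to 138%, 164% and 159% and IFNGR2 to 156%, 185% and 159% of pLKO. The 3 lower in shJarid2 were STAT2 at 58.1% (limma adjusted p = 1.2e-06), IRF9 at 57.7% (2.3e-04) and JAK2 at 62.8% (0.0038). IFNAR1, a chain of the type I interferon receptor, fell to 58.7% in shPALI1, 57.7% in shG9a and 44.4% in shsuz12 (limma adjusted p = 5.1e-05, 3.9e-05 and 6.6e-07). JAK1, the kinase that both receptors use, stood at 1.38 ± 0.33 RPKM (SD, n = 3) in pLKO and rose to 153% in shPALI1 and 156% in shsuz12. TYK2, a kinase of the type I receptor, rose to 137% in shsuz12 (0.44, limma adjusted p = 4.8e-04) and stood at 106%, 95% and 109% in shPALI1, shG9a and shJarid2.

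**Figure D5:**
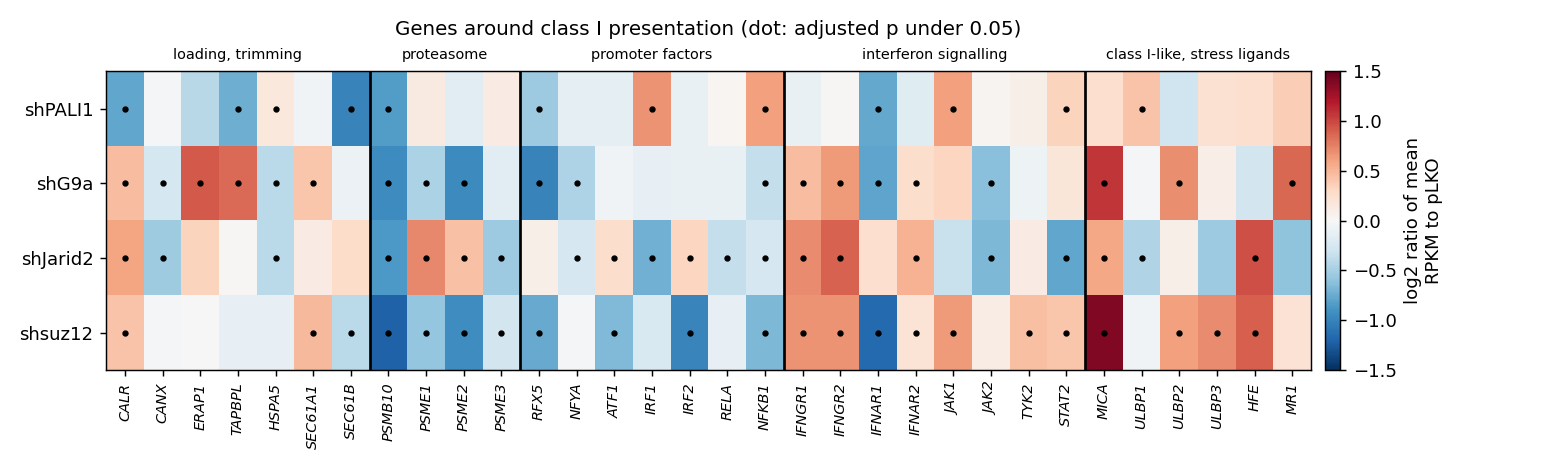
Log2 ratio of mean RPKM to pLKO (colour, cut at 1.5 either way) of the named genes of 5 lists (columns) under each hairpin (rows); dots mark an adjusted p under 0.05 in limma. PSMB10 is low under all 4 hairpins, and PSME1 and PSME2 are low in shG9a and shsuz12 and high in shJarid2.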

How the data were processed

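Members and gene lists were chosen with earlier results of these data known. RNA-seq of 15 LNCaP libraries was analysed, 3 in each of 5 groups taken from the labels. Values are RPKM, as the authors deposited them in 1 table. The alignment used STAR and hg38, per the submitters' processing notes. The version of STAR, how reads were counted and with which annotation is not given in the sources used here.

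Groups were compared with limma 3.58.1 in R 4.3.3 on log2(RPKM + 1), in 1 model of all 15 libraries without a replicate term; the test was moderated with a trend on the mean and two-sided. Genes with at least 1 RPKM in at least 3 libraries were kept (12715), and p-values were adjusted over all of them by Benjamini-Hochberg. The scale understates fold changes of low genes. RPKM steps gave each library's depth (10.56 to 19.36 M reads) and whole reads, within 0.01 of a whole number for 100% of the 22023 genes above 0. These reads were tested with limma voom (14368 genes with at least 10 reads in at least 3 libraries), an alternative chosen after seeing the data. It called 6126 genes in shG9a against pLKO, and the test on RPKM 5477.

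Also tried were no filter, a mean of at least 3 RPKM, pseudocounts of 0.5 and 0.1, median ratio scaling, quantile normalization, TPM, the 6 libraries of a comparison alone, the replicate number as a term, and each library left out. All members are named, and of each list the 4 genes with the smallest adjusted p in a comparison with pLKO. Of the non-members searched, the 3 most like each tested member by Pearson's r are named, except for HLA-B, whose are not reported here. Some genes that the rules and lists name are not reported here and are left out of the counts and sums over lists. Promoters are from RefSeq and transcripts from GENCODE; alignments used Biopython 1.88.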

Additional observations from a re-analysis of the deposited data

How the results depend on the processing

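Of 250 counts of members called under the alternatives, 235 lay within 1.5 times the reported count. With a mean of at least 3 RPKM, 4 members were left in the test. The count then fell to 1 in shPALI1, shG9a and shsuz12 against pLKO and to 2 in shJarid2. It also fell to 2 for shPALI1 against shsuz12, shPALI1 against shJarid2 and shG9a against shsuz12, and to 1 for shG9a against shJarid2. Fewer genes tested set these falls. Recovered reads gave 5 calls in shG9a against pLKO and 5 in shPALI1 against shG9a. In shsuz12 against pLKO, median ratio scaling gave 5 and TPM 6, with HLA-B and TAP1 higher under both and HLA-C with TPM; the cause was not tested. With a library left out, shG9a against shsuz12 gave 3 to 6 calls (3 without shG9a replicate 2 or 3 or shsuz12 replicate 3).

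Of 1323 values of single differences, 1230 kept their direction and side of the threshold, 60 lost a call, 16 gained one and 17 changed sign. No called difference changed sign. The sign changes were HLA-B in shG9a (0.04 with TPM, -0.12 to 0.01 with a library left out), HLA-C in shPALI1 (0.01 with median ratio scaling, 0.05 with quantile normalization, -0.09 to 0.03 with a library left out), B2M in shG9a (0.01 with quantile normalization, 0.05 with TPM) and TAP1 in shG9a (0.03 with TPM). NLRC5 in shJarid2 read 0.10 and in shsuz12 -0.12 with quantile normalization, and -0.09 to 0.02 and -0.03 to 0.04 with a library left out. HLA-C with a library left out read -0.02 to 0.12 in shG9a and -0.04 to 0.20 in shJarid2. TPM shifted the median of all genes by 0.10 in shG9a and 0.11 in shsuz12.

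Deviations of same-numbered replicates from their group means gave 30 correlations between groups, from -0.27 to 0.3, of which 7 exceeded 0.1. Differently numbered replicates were not set beside them, so these values cannot show whether the numbers pair the samples. The main model took no pairing. With the replicate block, shG9a against pLKO kept 2 of its 3 calls (HLA-E lost, adjusted p = 0.057) and shG9a against shsuz12 4 of 5 (HLA-B lost, 0.055); the other 8 counts were the same. Depth limits HLA-F (32 to 90 reads per library) and NLRC5 in pLKO (32 to 54).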

Other observations

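Genes that stand beside the classical pathway were measured in the same libraries. Over all genes tested, 16.5% were higher and 25.1% lower than in pLKO in shPALI1, 18.4% and 24.7% in shG9a, 23.8% and 27.2% in shJarid2, and 21.1% and 32.8% in shsuz12. Of 13 class I-like genes and stress ligands, 6 were tested, and HLA-G, MICB and CD1D lay under 0.1 RPKM in every library. In shsuz12 4 were higher and 0 lower, in shG9a 3 and 0, in shJarid2 2 and 1, and in shPALI1 1 and 0. The median log2 changes were 0.51, 0.28, -0.10 and 0.16 in that order, against -0.078, -0.040, -0.038 and -0.052 over all genes. MICA, a ligand of the activating receptor NKG2D, rose to 261% of pLKO in shsuz12 (log2 change 0.76, limma adjusted p = 1.6e-06), 210% in shG9a (0.56, 4.5e-05) and 149% in shJarid2 (0.28, 0.0073). It lies in the MHC region, where the lengths behind the RPKM are long. HFE, a class I-like protein of iron control that pairs with the B2M product, rose to 196% in shJarid2 (0.63, 5.4e-04) and 186% in shsuz12 (0.57, 0.001). MR1, which presents vitamin B metabolites, rose to 182% in shG9a (0.49, 0.0024).

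Class II genes differed in level. CIITA, the class II counterpart of NLRC5, and HLA-DRA, HLA-DPA1, HLA-DPB1 and HLA-DQA1 lay under 0.1 RPKM in every library, and 2 of 10 class II genes were tested, HLA-DQB1 and HLA-DMA. HLA-DQB1 stood at 1.6 RPKM in pLKO (90 to 239 reads over all libraries) and HLA-DMA at 1.38 (76 to 200 reads). HLA-DMB, not tested, had up to 106 reads and stood at 0.592 RPKM in pLKO. These genes lie in the MHC region too, so a low RPKM there does not show a low level. HLA-DMA fell to 53.5% of pLKO in shPALI1 (-0.46, limma adjusted p = 0.0047) and 64.8% in shG9a (-0.33, 0.027), and HLA-DQB1 rose to 141% in shPALI1 (0.32, 0.029) and 178% in shsuz12 (0.56, 6.5e-04).

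Of 18 interferon-stimulated genes outside the class I pathway, 11 were tested. In shPALI1 6 were higher and 0 lower, in shG9a 3 and 1, in shJarid2 2 and 2, and in shsuz12 0 and 6, with median log2 changes of 0.34, -0.06, -0.13 and -0.43. IFIT1 rose to 591% of pLKO in shPALI1, from 0.254 to 1.5 RPKM (log2 change 1.00, limma adjusted p = 8.7e-07). IFIT1 and IFIT2, both among the 6 higher, passed the filter of 1 RPKM in 3 libraries through the shPALI1 libraries alone. Their calls there, and their part in the count and the median, are therefore no separate support. IFI6 rose to 269% in shPALI1 (1.34, 7.1e-05) and fell to 47.1% in shsuz12 (-0.98, 6.2e-04). Of the members, HLA-B and TAP1 stood at 125% and 111% in shPALI1, and both at 122% in shsuz12. None of these passed on log2(RPKM + 1). Those that passed were TAPBP (175%), NLRC5 (282%) and TAP2 (69.7%) in shPALI1. In shsuz12 they were TAPBP (249%), HLA-E (62.5%) and TAP2 (58.1%). Whether members followed the interferon-stimulated genes was not tested.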
